A study of Mus musculus with 6 samples.

Results

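The 10 genes described here encode regulators of mRNA polyadenylation and translation in male germ cells, and were taken by name from the 26743 genes counted in mouse testis. They are the poly(A) polymerases Papola and Papolb, the poly(A)-binding proteins Pabpc1 and Pabpc2, the 64 kDa subunits of cleavage stimulation factor (CstF) Cstf2 and Cstf2t, the Y-box proteins Ybx1 and Ybx2, and the DAZ family proteins Boll and Dazl. Gene expression was profiled by RNA-seq in whole testes taken at 21 days of age from 3 WT and 3 Trf2-/- males, the latter carrying an inactivated Tbpl1 gene (encoding Trf2, a relative of the TATA-binding protein) in all their cells. No other treatment or allele is named for either genotype, and at this age of the first wave of spermatogenesis round spermatids have just begun to form. Total RNA was depleted of ribosomal RNA and sequenced as single-end reads.

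Male germ cells make many mRNAs well before they translate them, since transcription stops when the spermatid nucleus compacts. Messages are therefore stored as ribonucleoproteins, and their poly(A) tails and 3' ends are shaped by proteins of which the testis has its own forms. Papolb (TPAP) is the testis cytoplasmic poly(A) polymerase beside the nuclear Papola, Pabpc2 is a testis form of the poly(A)-binding protein Pabpc1, and Cstf2t (tauCstF-64) is an autosomal form of the X-linked Cstf2, whose chromosome is silenced during meiosis. Ybx2 (MSY2) coats stored germ cell mRNAs, Ybx1 is its broadly expressed relative, Dazl is a translational regulator needed from early germ cells on, and Boll is its relative needed in spermatids.

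Of the testis forms 3 have no intron in the mouse annotation: Papolb, Pabpc2 and Cstf2t each lie in 1 exon, whereas Papola has 22 exons, Pabpc1 15 and Cstf2 16. Between each pair the coding sequences were 75.6% identical for Papolb and Papola, 82.5% for Pabpc2 and Pabpc1, 67.9% for Cstf2t and Cstf2, 59.2% for Ybx2 and Ybx1 and 57.5% for Boll and Dazl. How well a read of 50 bases separates the pairs was therefore checked on the coding transcripts. Papola and Papolb were the only pair to share exact stretches of that length, in 16 windows of 50 bases that fall in 1 run of 65 coding bases (build NCBIM37, Papolb chr5:143004849-143004913 on the minus strand and Papola chr12:107050499-107050563 on the plus strand). The shared run is shown because reads from it alone cannot be assigned to either gene.
Papolb and Papola: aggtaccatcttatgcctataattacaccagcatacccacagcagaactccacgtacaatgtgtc

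These 16 windows were 0.382% of the windows of Papolb, and 1.27% of those of Papola were found elsewhere in the genome, so the pair is separated over nearly its whole length. Exact copies of windows were absent for the longest coding transcript of Cstf2, Cstf2t, Boll, Dazl and the testis poly(A)-binding protein gene. That transcript had 882 bases for Boll, against a deposited gene length of 3514, and 2276 for Cstf2, against 6102. The rest of these genes was not searched. By contrast 32% of the windows of Pabpc1 occurred at 8 other loci, 38.9% of those of Ybx1 at 9 and 9.73% of those of Ybx2 at 1. How the counting treated reads with several matches is not stated in the sources used here. The counts of Pabpc1 and Ybx1, and to a smaller degree those of Ybx2, are uncertain to that extent.

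The sequences before the annotated starts are shown for the CstF and poly(A) polymerase pairs, as examples of a testis form beside its counterpart. RefSeq's table (GRCm38.p6) gave 10 promoters for 8 of the 10 genes, and each was located by an exact match in NCBIM37. The window of Papola lies inside the span over which the gene was counted, which begins farther upstream at chr12:107018512. The capitals mark the core of the cAMP response element (CRE), TGACG on either strand, which is part of the full element TGACGTCA, so that a full match is also a core match.
Papolb, chr5:143006031-143006280, minus strand: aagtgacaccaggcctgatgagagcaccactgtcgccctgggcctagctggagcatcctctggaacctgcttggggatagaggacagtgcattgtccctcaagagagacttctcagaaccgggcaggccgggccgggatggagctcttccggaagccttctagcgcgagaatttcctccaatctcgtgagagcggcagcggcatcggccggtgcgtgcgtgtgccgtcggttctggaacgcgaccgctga
Papola, chr12:107022657-107022906, plus strand: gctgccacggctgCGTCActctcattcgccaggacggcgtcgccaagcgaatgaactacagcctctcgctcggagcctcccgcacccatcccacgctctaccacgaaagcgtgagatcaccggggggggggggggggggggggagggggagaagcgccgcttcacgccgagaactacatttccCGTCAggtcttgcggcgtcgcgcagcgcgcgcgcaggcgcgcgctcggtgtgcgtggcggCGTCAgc
Cstf2t, chr19:31157081-31157330, plus strand: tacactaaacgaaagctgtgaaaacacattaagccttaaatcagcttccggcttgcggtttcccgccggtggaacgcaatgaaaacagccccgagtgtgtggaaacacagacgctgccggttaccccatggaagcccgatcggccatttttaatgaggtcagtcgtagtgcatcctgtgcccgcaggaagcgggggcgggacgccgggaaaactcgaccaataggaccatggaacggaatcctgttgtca
Cstf2, chrX:130593465-130593714, plus strand: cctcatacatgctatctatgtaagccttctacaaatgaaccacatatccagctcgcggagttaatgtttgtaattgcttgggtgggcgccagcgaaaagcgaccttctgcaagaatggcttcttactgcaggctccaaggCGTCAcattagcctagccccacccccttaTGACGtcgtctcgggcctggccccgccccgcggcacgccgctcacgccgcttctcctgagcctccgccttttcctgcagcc

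The CRE core occurred 3 times before the RefSeq start of Papola, 2 times before that of Cstf2 and 1 time before that of Dazl. It was not found in the windows of Papolb, Cstf2t, Ybx1, Ybx2 or Boll, which run from 250 bases before to 50 bases after the start. The core was held by 20.8% of all 32851 promoters that RefSeq lists. The full CRE, held by 1.79% of them, and the letters TATAAA of the TATA box, held by 13.6% on either strand, matched no window of the 8 genes. These are descriptions of the letters in the windows and not of factor binding.

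Total counts on genes ran from 21582123 to 29859347 in the WT and from 15187062 to 24530489 in the Trf2-/- mice, the lowest being Trf2-/- mouse 3. Levels are given as CPM, the counts scaled to a common library size with the trimmed mean of M values (TMM), and a count of 0 leaves room for up to 3 counts, which is at most 0.190 CPM in any mouse. The smallest count of any of the 10 genes in any mouse was 1109, and all 10 were among the 16924 genes tested. Tbpl1 itself fell from 295 ± 12.5 to 61.0 ± 4.6 CPM (mean ± SD over 3 mice per genotype), which is -2.27 on the log2 scale (SE 0.06, adjusted p = 1.18e-06). Throughout, a gene is said to have risen or fallen when its adjusted p in edgeR's quasi-likelihood test was under 0.05, and log2 fold changes are of Trf2-/- over WT.

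In Trf2-/- testis 5 of the 10 genes fell, 2 rose and 3 did not pass the test. Those that fell were the 4 testis-enriched forms Papolb, Pabpc2, Cstf2t and Ybx2, and Boll, those that rose were Cstf2 and Dazl, and those that did not pass were the widely expressed Papola, Pabpc1 and Ybx1. Of all tested genes 20.2% were lower and 11.2% higher, 31.4% in all, beside 7 of the 10. Beyond a 2-fold change 4.3% of tested genes were lower and 0.609% higher, against 1 of the 10, Pabpc2, lower and 0 higher. The 3 mice of each genotype did not overlap for 8 of the 10 genes, that is all but Papola and Ybx1, and for 49.2% of all tested genes. The median log2 fold change was -0.20 over the 10 genes and 0.04 over all tested genes. With library size in place of TMM, 38.7% rather than 64.4% of the changed genes were lower, and the small changes of Cstf2t, Papola and Ybx1 depended on that choice, as given beside each.

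**Figure D1:**
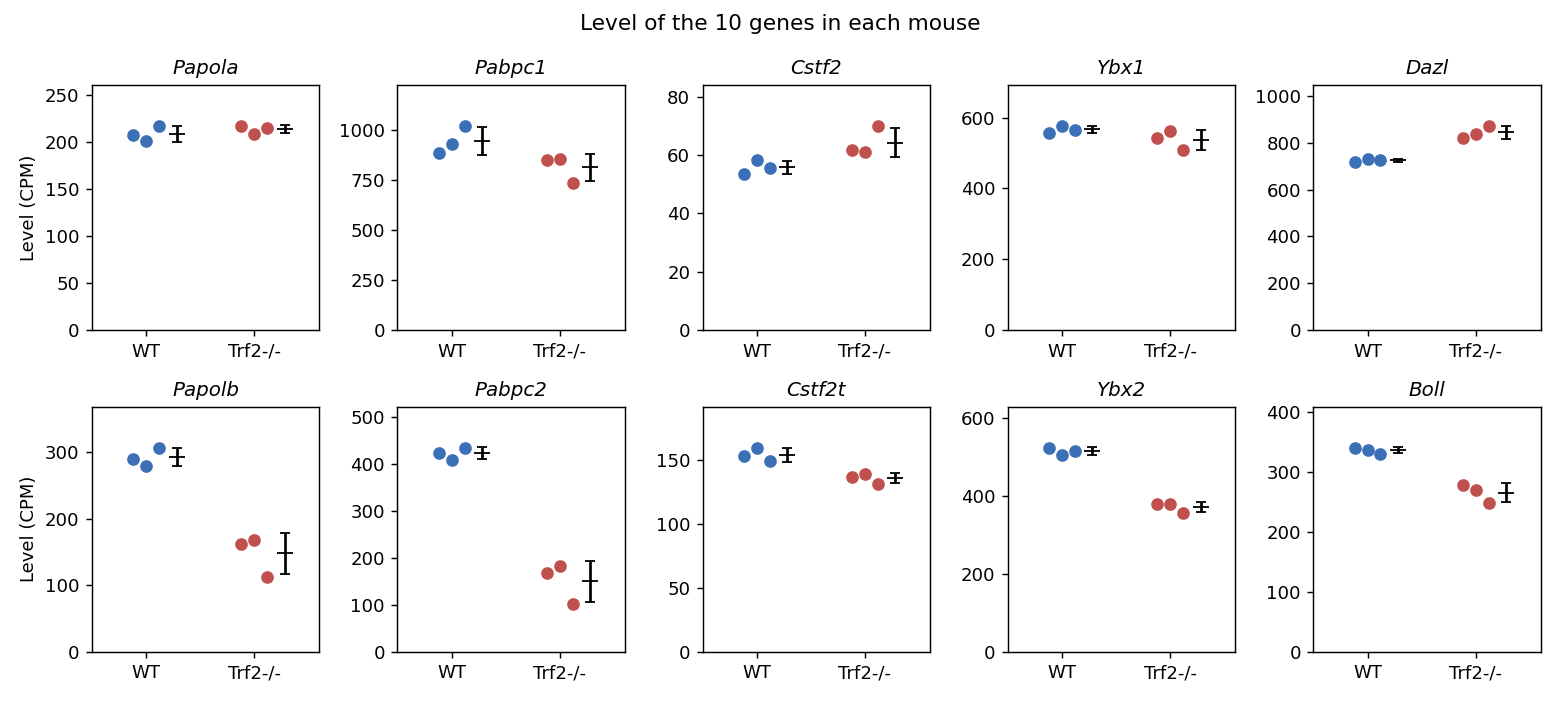
Level of each of the 10 genes in CPM on linear axes from 0, with a point for each mouse (blue WT, red Trf2-/-, 3 each) and a black bar with the mean and SD. Pabpc2 and Papolb show the widest gaps, from means of 423 to 150 and from 293 to 148 CPM, whereas the points of Papola and Ybx1 overlap.

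**Figure D2:**
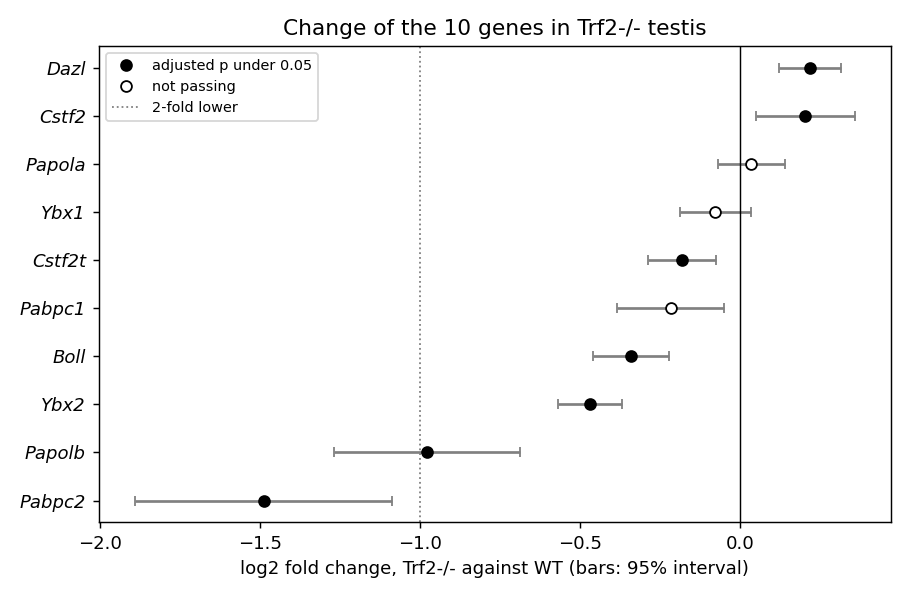
Log2 fold change of Trf2-/- over WT for each of the 10 genes (x axis), with 95% intervals from edgeR, sorted by size. Filled points passed the adjusted p threshold, open points did not, and the dotted line marks a 2-fold decrease, which Pabpc2 alone of the 10 exceeds at -1.49.

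Of the poly(A) polymerases, which extend the 3' end of mRNAs, the testis form fell by 49.3% while the somatic form did not pass the test. Papolb (ENSMUSG00000074817, chr5:143001792-143006030) was counted 8335, 7308 and 6404 times in WT mice 1 to 3 and 4098, 3927 and 1788 times in Trf2-/- mice 1 to 3, or 290, 280 and 307 against 163, 168 and 113 CPM. All the Trf2-/- mice were below all the WT mice, and mouse 3 was lowest. Means were 293 ± 13.8 and 148 ± 30.4 CPM, with a log2 fold change of -0.98 (SE 0.13, 95% interval -1.27 to -0.69, adjusted p = 0.000933). Papolb lies within an intron of Radil on the same strand without sharing exonic bases, and this host gene differed by a log2 fold change of 0.05 (SE 0.05, adjusted p = 0.386).

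Papola (ENSMUSG00000021111, chr12:107018512-107077154) had 207, 201 and 217 CPM in WT and 217, 209 and 214 CPM in Trf2-/- mice. The values of the genotypes were interleaved, with a log2 fold change of 0.03 (SE 0.05, 95% interval -0.07 to 0.14, adjusted p = 0.592). With library size alone Papola was higher in Trf2-/- mice, by 0.13 on the log2 scale (adjusted p = 0.0476). Ak7, which overlaps the span of Papola on the same strand without sharing exonic bases, fell by 0.35 (adjusted p = 0.00396). Per kilobase of gene length within each mouse, there were 1.66, 1.65 and 1.68 Papolb reads for each Papola read in WT, and 0.887, 0.956 and 0.624 in Trf2-/- testis. Papolb was thus the more abundant of the pair in the WT mice and the less abundant in the Trf2-/- mice, the mean ratio being 2.06-fold lower. Ratios of this kind do not depend on how the libraries were scaled, and 3 mice against 3 allow no p under 0.1 in a two-sided exact permutation test, the value that each of the 5 ratios reported here reached (adjusted p = 0.1 over the 5).

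The poly(A)-binding proteins, which coat the tail and link it to translation, showed the largest decrease of the 10 genes, in the testis form. Pabpc2 (ENSMUSG00000051732, chr18:39933151-39935736) was counted 12182, 10690 and 9074 times in WT mice and 4232, 4243 and 1591 times in Trf2-/- mice. In CPM these were 425, 409 and 435 against 168, 182 and 101, with no overlap and mouse 3 again lowest. Means fell from 423 ± 13.0 to 150 ± 43.5 CPM, 2.81-fold, a log2 fold change of -1.49 (SE 0.18, 95% interval -1.89 to -1.09, adjusted p = 0.00068). Without Trf2-/- mouse 3 the log2 fold change was -1.27 for Pabpc2 and -0.81 for Papolb, and both still passed.

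Pabpc1 (ENSMUSG00000022283, chr15:36525416-36538728) had 889, 930 and 1023 CPM in WT and 851, 856 and 736 CPM in Trf2-/- mice. The genotypes did not overlap, but the gap between them was narrow and the log2 fold change of -0.22 (SE 0.07, 95% interval -0.38 to -0.05) missed the threshold with an adjusted p of 0.0506 in edgeR. DESeq2's Wald test gave an adjusted p of 0.0374, so the call for Pabpc1 depended on the test. The ratio of Pabpc2 to Pabpc1 reads per kilobase was 1.07, 0.982 and 0.949 in WT mice and 0.440, 0.474 and 0.305 in Trf2-/- mice, 2.50-fold lower, with no overlap between the genotypes.

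For CstF-64, the subunit of the cleavage complex that binds the sequence downstream of the poly(A) site, the members of the pair moved in opposite directions by small amounts. Cstf2t (ENSMUSG00000053536, chr19:31157331-31161080) had 153, 160 and 149 CPM in WT and 137, 139 and 131 CPM in Trf2-/- mice. All the Trf2-/- mice were below all the WT mice, with a log2 fold change of -0.18 (SE 0.05, 95% interval -0.29 to -0.08, adjusted p = 0.0183). The call was lost with library size alone (-0.09, adjusted p = 0.164) and without WT mouse 1, WT mouse 2 or Trf2-/- mouse 1, where adjusted p reached at most 0.0876. Cstf2t lies within Prkg1, on the opposite strand and without shared exonic bases, and Prkg1 had an adjusted p of 0.228.

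Cstf2 (ENSMUSG00000031256, chrX:130593726-130621358) was the least abundant of the 10 genes, with 53.6, 58.3 and 55.5 CPM in WT and 61.9, 60.9 and 70.1 CPM in Trf2-/- mice. Mouse 3 was the highest, and the log2 fold change was 0.20 (SE 0.07, 95% interval 0.05 to 0.36, adjusted p = 0.0484). The call lay close to the threshold and was lost when any mouse but Trf2-/- mouse 2 was left out, with adjusted p of 0.16, 0.0767 and 0.116 without WT mice 1, 2 and 3 and of 0.0683 and 0.0786 without Trf2-/- mice 1 and 3. Over all alternatives adjusted p ran from 0.0116 to 0.16. Cstf2 shares 399 exonic bases with Nox1 on the opposite strand, but Nox1 had only 38 counts in the 6 mice together. The ratio of Cstf2t to Cstf2 reads per kilobase was 4.64, 4.46 and 4.37 in WT mice and 3.59, 3.71 and 3.05 in Trf2-/- mice, 1.31-fold lower, so that Cstf2t remained the more abundant of the pair in every mouse.

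The Y-box proteins package mRNA into ribonucleoproteins, and the germ cell form fell while the broadly expressed form did not pass the test. Ybx2 (ENSMUSG00000018554, chr11:69749298-69755107) had 524, 505 and 515 CPM in WT and 379, 379 and 357 CPM in Trf2-/- mice. The mice of each genotype lay close together, and the log2 fold change of -0.47 (SE 0.04, 95% interval -0.57 to -0.37, adjusted p = 0.000368) had the smallest adjusted p of the 10 genes. Ybx1 (ENSMUSG00000028639, chr4:118950586-118967209) had 557, 577 and 565 CPM in WT and 542, 561 and 507 CPM in Trf2-/- mice, which overlapped. Its log2 fold change was -0.08 (SE 0.05, 95% interval -0.19 to 0.03, adjusted p = 0.251), and 0.017 with library size alone. Ybx2 to Ybx1 ratios per kilobase were 1.31, 1.22 and 1.27 in WT mice and 0.978, 0.943 and 0.982 in Trf2-/- mice, 1.31-fold lower, which put Ybx1 above Ybx2 in every Trf2-/- mouse on the deposited lengths.

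The DAZ family members, which bind the 3' untranslated regions of germ cell mRNAs, changed in opposite directions. Boll (ENSMUSG00000025977, chr1:55305502-55420313) had 341, 337 and 331 CPM in WT and 278, 271 and 248 CPM in Trf2-/- mice. All the Trf2-/- mice were lower, with a log2 fold change of -0.34 (SE 0.05, 95% interval -0.46 to -0.22, adjusted p = 0.00164). Dazl (ENSMUSG00000010592, chr17:50418719-50432924) had 718, 731 and 726 CPM in WT and 820, 839 and 872 CPM in Trf2-/- mice, all of the latter being higher. Its log2 fold change was 0.22 (SE 0.04, 95% interval 0.12 to 0.32, adjusted p = 0.00522). The ratio of Boll to Dazl reads per kilobase was 0.408, 0.396 and 0.391 in WT mice and 0.291, 0.277 and 0.244 in Trf2-/- mice, 1.48-fold lower.

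**Figure D3:**
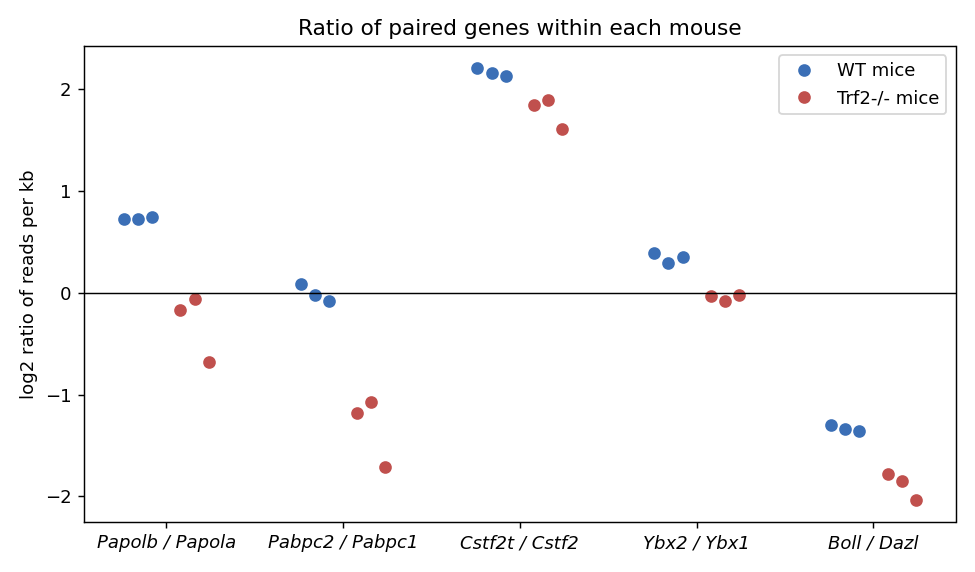
Log2 ratio of reads per kilobase for the 5 pairs (first named gene over the second) in each mouse, blue for WT and red for Trf2-/-, with 0 meaning equal levels. In all 5 pairs every Trf2-/- mouse is below every WT mouse, and all pairs but Cstf2t/Cstf2 lie below 0 in all Trf2-/- mice. Boll/Dazl is below 0 in every WT mouse as well, and Pabpc2/Pabpc1 in WT mice 2 and 3.

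Compared per kilobase of the deposited gene length, the order of the genes also differed between the genotypes. In WT testis Ybx2 led with 284 ± 5.28 CPM per kb, followed by Dazl (241 ± 2.15), Ybx1 (224 ± 3.89), Pabpc1 (164 ± 12.0), Pabpc2 (164 ± 5.03), Boll (95.8 ± 1.48), Papolb (69.0 ± 3.25), Papola (41.5 ± 1.61), Cstf2t (41.0 ± 1.46) and Cstf2 (9.14 ± 0.385). Among neighbours in this order only Pabpc1 and Pabpc2, and Papola and Cstf2t, had mice that overlapped.

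In Trf2-/- testis Dazl led with 280 ± 8.75 CPM per kb, followed by Ybx1 (212 ± 10.8), Ybx2 (205 ± 7.19), Pabpc1 (141 ± 11.8), Boll (75.6 ± 4.5), Pabpc2 (58.1 ± 16.8), Papola (42.5 ± 0.866), Cstf2t (36.2 ± 1.05), Papolb (34.9 ± 7.18) and Cstf2 (10.5 ± 0.824). Here Ybx1 and Ybx2, Pabpc2 and Papola, and Cstf2t and Papolb overlapped. These orders rest on the deposited lengths, which can exceed that of a transcript, as with 5768 bases for Pabpc1 against 2817 in its longest coding transcript. Per kilobase of that transcript the ratio of Pabpc2 to Pabpc1 was 0.463 to 0.520 in WT and 0.149 to 0.232 in Trf2-/- mice, and that of Ybx2 to Ybx1 0.852 to 0.915 and 0.657 to 0.684, so the higher of either pair in WT testis depends on the length, whereas the differences between the genotypes do not. The annotated transcript of Boll holds its coding sequence alone and gave Boll to Dazl ratios of 1.52 to 1.59 in WT and 0.948 to 1.13 in Trf2-/- mice. Papolb stayed above Papola in the WT mice (1.44 to 1.46) and below it in the Trf2-/- mice (0.545 to 0.834), and Cstf2t above Cstf2 in all 6 (1.14 to 1.73).

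Trf2-/- mouse 3 was the farthest of the 3 from the WT mean for 9 of the 10 genes, Papola being the exception, and it was also the mouse with the fewest counts. Relative to the WT mean, Trf2-/- mice 1, 2 and 3 stood at -1.33, -1.22 and -2.07 on the log2 scale for Pabpc2 and at -0.85, -0.80 and -1.37 for Papolb. The spread was narrower for Ybx2 (-0.44, -0.44 and -0.53), Boll (-0.27, -0.32 and -0.44) and Cstf2t (-0.17, -0.15 and -0.23). Cstf2 (0.15, 0.13 and 0.33) and Dazl (0.18, 0.21 and 0.27) were farthest above the WT mean in the same mouse.

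Several lists of germ cell stage markers also differed between the genotypes. Of 9 tested round spermatid markers 8 fell, 5 of them beyond 2-fold, with a median log2 fold change of -1.57 over the tested markers. Their summed level, in which abundant genes weigh most, was 651 to 672 CPM in WT mice and 455, 487 and 346 CPM in Trf2-/- mice 1 to 3. Among these markers Acrv1, an acrosome protein gene, had 1.15 CPM in WT mouse 1, the mouse with the most counts, and was at 0 in Trf2-/- mouse 3. Catsper3 and Catsper4 of the sperm calcium channel were also at 0 in that mouse. These are values of single mice, and Trf2-/- mouse 3 had the fewest counts, where 0 leaves room for up to 0.190 CPM. Spaca1 did not pass (log2 fold change -0.22, adjusted p = 0.217). All 8 pachytene spermatocyte markers fell, with sums of 6049 to 6486 CPM in WT and 4013 to 4931 CPM in Trf2-/- mice, and the 3 tested of 7 elongating spermatid markers in the table fell, with sums of 5.71 to 6.74 CPM in WT and 0.822 to 1.5 CPM in Trf2-/- mice.

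Of the 8 early spermatocyte markers 3 rose and 1 fell, summing to 1524 to 1555 CPM in WT and 1708 to 1826 CPM in Trf2-/- mice. Of the 9 spermatogonia markers 1 rose (260.2 to 277 against 268 to 354 CPM), and of the 6 Sertoli cell markers 3 rose (389 to 412 against 452 to 500 CPM). Markers of Leydig cells rose in 1 of 6, of peritubular cells in 0 of 4 and of macrophages in 4 of 8. The macrophage markers summed to 164 to 188 CPM in WT mice and to 368, 223 and 187 CPM in Trf2-/- mice 1 to 3, so mouse 3 lay within the WT range. The 1 tested of 5 T cell markers did not pass. The part of these differences in the changes of the 10 genes was not tested. In whole testis fewer cells of a type and less RNA per cell cannot be told apart.

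**Figure D4:**
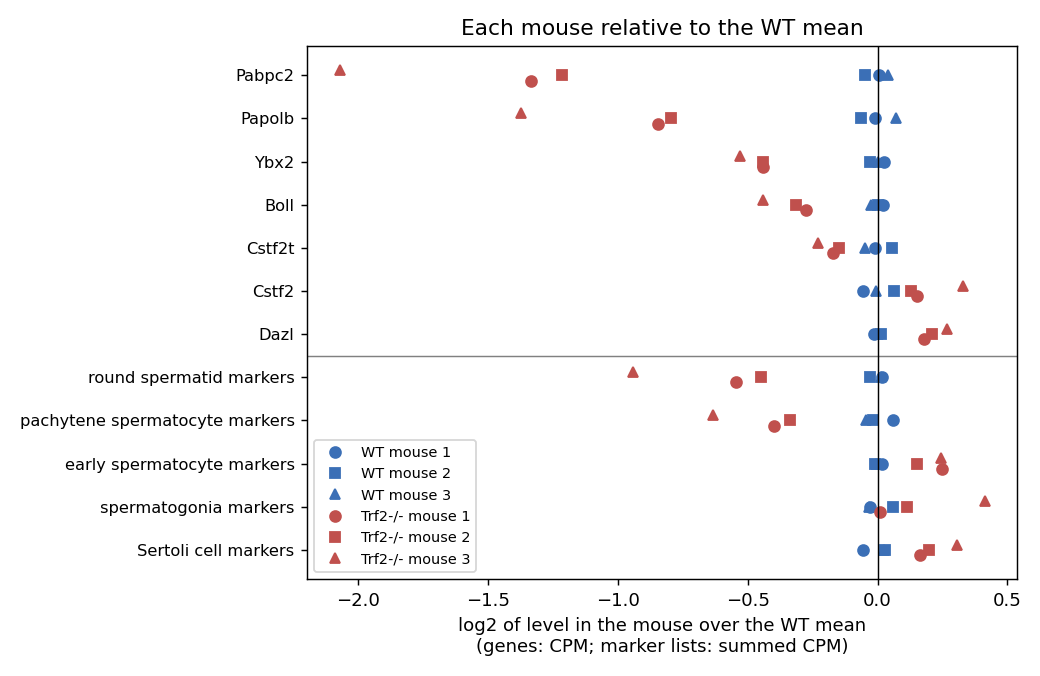
Level of the 7 changed genes (above the line, CPM) and of 5 marker lists (below the line, summed CPM) in each mouse as log2 over the WT mean, with symbols for mice 1 to 3 and blue for WT, red for Trf2-/-. Trf2-/- mouse 3 (red triangle) is the farthest from 0 for all 7 genes and for 4 of the 5 lists, the early spermatocyte markers being the exception.

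Other genes of the same machinery are described here for 7 lists, whose counts are to be read beside the 20.2% of all tested genes that were lower and the 11.2% that were higher. Of the 19 other tested cleavage and polyadenylation factors 5 fell, 1 rose and 13 did not pass. Cstf1, which encodes another subunit of CstF, fell from 104 to 60.3 CPM (log2 fold change -0.78, SE 0.05, adjusted p = 0.000176), a larger decrease than that of Cstf2t. Cstf3, which encodes a further CstF subunit, did not pass (log2 fold change 0.12, SE 0.05, adjusted p = 0.0854). Cpsf6, a subunit of cleavage factor I, rose by 0.15 on the log2 scale (adjusted p = 0.031). The list's median, the 4 genes above included, was -0.03.

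Noncanonical poly(A) polymerases and terminal transferases were lower for 5 of 11, higher for 1 and not passing for 5, with a median of -0.01. Within the Fam46 family of poly(A) polymerases, Fam46b fell from 20.4 to 6.16 CPM (log2 fold change -1.70, adjusted p = 0.000451) and Fam46c from 88.9 to 40.7 CPM (-1.12, adjusted p = 0.00172), both beyond 2-fold, whereas Fam46a rose from 6.35 to 11.2 CPM (0.82, adjusted p = 0.00217).

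Of the 11 other tested poly(A)-binding proteins and partners 3 fell, 1 rose and 7 did not pass. Pabpc6, a relative of Pabpc1, had 636, 592 and 605 CPM in WT and 273, 318 and 196 CPM in Trf2-/- mice, a log2 fold change of -1.22 (SE 0.14, adjusted p = 0.000632) that was the only one beyond 2-fold besides Pabpc2, and mouse 3 was lowest here too. Pabpc4 rose by 0.33 on the log2 scale (adjusted p = 0.0277), and the median of the whole list was -0.06.

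Among the 22 other tested proteins of germ cell mRNA storage and translation 9 fell, 1 rose and 12 did not pass, and the whole list had a median of -0.06. Csda, which encodes a further Y-box protein (MSY4), was the most decreased, from 1044, 926 and 889 CPM to 562, 589 and 497 CPM (log2 fold change -0.79, SE 0.08, adjusted p = 0.000402), so that of the Y-box genes Csda and Ybx2 fell and Ybx1 did not pass. Lsm14a, which encodes a protein of cytoplasmic mRNA granules, rose by 0.24 (adjusted p = 0.0331).

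The other 3 lists are to be read beside the same shares over all tested genes, 20.2% lower and 11.2% higher. Cytoplasmic polyadenylation regulators fell in 3 of 13 and rose in 1, with a median of 0.02, among them Dazap1, which encodes a protein that binds DAZ (log2 fold change -0.35, adjusted p = 0.0113), and Cpeb1, which encodes the protein that binds the cytoplasmic polyadenylation element (0.25, adjusted p = 0.0426). Deadenylases, which shorten the tail, fell in 4 of 20 and rose in 1, with a median of 0.03. Pan3, a subunit of the PAN deadenylase, fell by 0.35 (adjusted p = 0.0014), and Tob2, a deadenylase partner whose symbol is carried by 2 identifiers in the table, rose by 0.21 (adjusted p = 0.0431). Cap-binding and translation initiation factors fell in 3 of 15 and rose in 4, with a median of 0.01, from Eif4e2, a cap-binding protein (log2 fold change -0.40, adjusted p = 0.00168), to Eif4b, an activator of the helicase that unwinds mRNA (0.31, adjusted p = 0.00101).

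**Figure D5:**
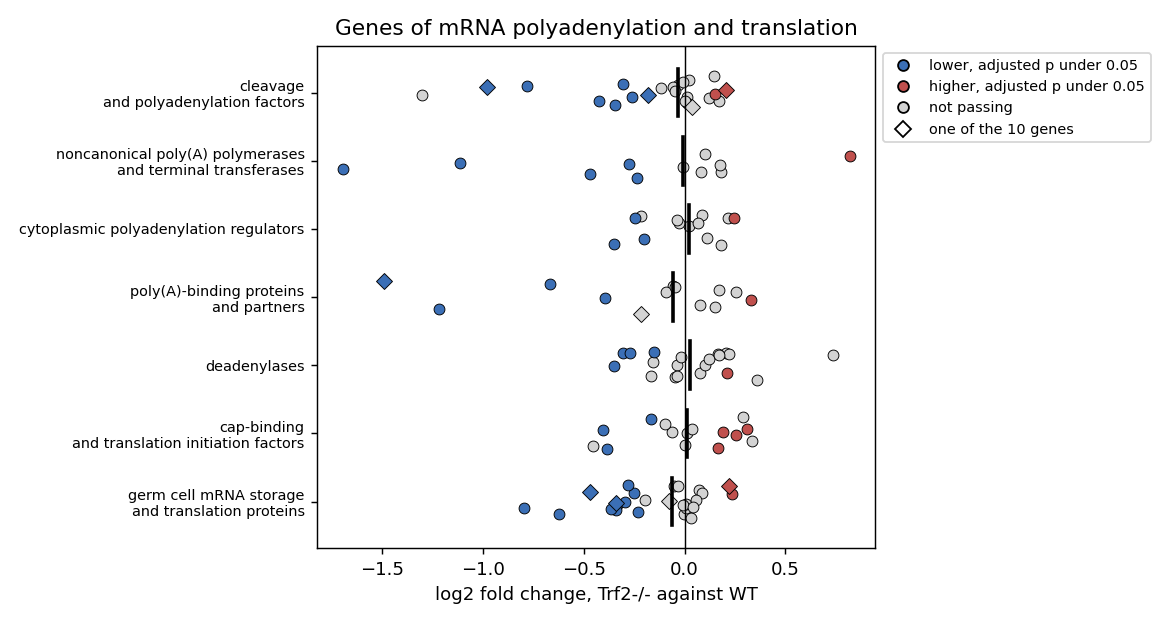
Log2 fold change of Trf2-/- over WT (x axis) for each tested gene of 7 lists of polyadenylation and translation factors. Blue points fell and red points rose at an adjusted p under 0.05, grey points did not pass, diamonds mark the 10 genes and black bars the list medians, which lie between -0.06 and 0.03.

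The genes whose pattern over the 6 mice was most like that of Ybx2, by the root mean square difference of centred log2 CPM, were Tut1 (0.014), Haus4 (0.016), 3110056O03Rik (0.018), Slc37a1 (0.026) and Ccdc79 (0.028). The closest, Tut1, encodes a nuclear terminal uridylyltransferase and had 85.4, 84.1 and 83.2 CPM in WT against 62.3, 61.8 and 58.2 CPM in Trf2-/- mice. These are likenesses over 6 mice of 2 genotypes, and the log2 fold changes of the 5 genes were between -0.47 and -0.45.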

How the data were processed

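Testis RNA was sequenced from 6 mice, 3 independent biological replicates per genotype. The authors deposited raw read counts per gene, aligned with Tophat to NCBIM37 (mm9). CASAVA 1.8.2, TopHat2 2.0.10, Bowtie2 2.1.0, HTSeq 0.5.4p3 and DESeq2 1.0.19 are listed in the submitters' processing notes. The annotation release and the counting's treatment of strand and of multiply matching reads are not given in the sources used here. The deposited gene length (bases) was used for levels per kilobase, and 12 further columns of normalized values were not used.

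The 10 genes and the pathway and marker lists were chosen with earlier results of these data known. Genes were assigned by the table's gene names. Counts were filtered with filterByExpr, which kept 16924 genes holding 99.9% of counts, scaled by TMM and tested over all of them with edgeR 4.0.16 (R 4.3.3; glmQLFit, glmQLFTest) with Benjamini-Hochberg adjustment at 0.05. Standard errors were derived from the F statistic. On simulated data this fit recovered 93% of 200 changed genes and called 6 unchanged genes among 16924. In the mice 5312 genes passed, and recovery with that many changed genes was not tested. Recovery of differences as small as those of most of the 10 genes was not tested separately. Ratios of paired genes were compared with a two-sided exact permutation test over the mice. Depth ranged from 15187062 to 29859347 counts, and the limit for a count of 0 covers counting error only. Replicate libraries differed by more than sampling noise (chi-square per degree of freedom 3.51 to 10.9).

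Named from each list were the non-members with the largest decrease and increase among those that changed, every non-member beyond 2-fold, the 5 genes most like Ybx2 in pattern, and Tbpl1. Acrv1, Spaca1, Catsper3 and Catsper4 of the marker lists, Cstf3, the host or overlapping genes and genes with copied windows were named after their values were seen. Alternatives were DESeq2's size factors, library size alone, the Wald test of DESeq2 1.42.0, no filter beyond 1 count, at least 10 counts in every mouse, an adjusted p under 0.01, a replicate block, leaving out each mouse and, for the ratios, 0.5 added to every count, the difference of edgeR's fold changes and, added after seeing the data, the length of the longest coding transcript. Coding identity came from edlib 1.3.9.post1, and windows of 50 bases were searched exactly on both strands of NCBIM37.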

Additional observations from a re-analysis of the deposited data

How the results depend on the processing

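Decreases of Pabpc2, Papolb, Ybx2 and Boll and the increase of Dazl kept their direction and call under all 13 alternatives, and the number of the 10 genes that fell stayed between 4 and 6. The number that rose (2) became 1 under DESeq2's Wald test, under the replicate block and at an adjusted p under 0.01, and ran from 1 to 2 when each mouse was left out, Cstf2 being the gene lost, whereas it became 3 with library size alone, where Papola passed. With library size alone the log2 fold change of Ybx1 turned to 0.017, the genes higher among all tested numbered 4267 instead of 1889, and those higher among the other genes of the 7 lists 27 instead of 10. At an adjusted p under 0.01 these were 481 and 3, as fewer genes pass a stricter threshold, and leaving out each mouse gave 780 to 1903 and 3 to 10. Pabpc1 passed under DESeq2 (adjusted p = 0.0374) and with no filter (0.0174).

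Beyond 2-fold, 727 genes were lower and 103 higher, against 436 and 61 with at least 10 counts in every mouse, 158 higher with library size alone, 159 higher with no filter, 32 higher at an adjusted p under 0.01 and 53 to 177 higher when each mouse was left out. Without WT mouse 2, Trf2-/- mouse 1 or Trf2-/- mouse 2 Papolb passed 2-fold beside Pabpc2. The cause of these differences was not tested where fewer genes or mice do not give it.

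Deviations of same-numbered mice from their genotype means correlated at -0.0973, -0.0313 and -0.102, which shows no sign of pairing by replicate number. With 3 mice per genotype this cannot settle whether any mice were paired. The replicate block left 725 genes lower and 76 higher beyond 2-fold, and it lost the call of Cstf2. All 5 ratios kept their direction under the alternatives that could be computed for them, and with the replicate block 3 pairs allow no p under 0.25, the value reached. Neither the transcript length nor the replicate block can alter a ratio's difference between the genotypes, so their direction was fixed beforehand. The 3 mice per genotype limit the small changes of Cstf2, Cstf2t and Pabpc1. Counts of Pabpc1, Ybx1 and Ybx2 may also depend on how reads with several matches were treated.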
